A study of Homo sapiens with 16 samples.

Results

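A set of 7 genes, of the alpha-arrestin family and of the glucose-sensing MLX pair, was followed in LN229, an established line of human glioblastoma cells. They were taken by name, as a family and a pair of partners, by a rule that sets no threshold on measured values, and comprise the 5 alpha-arrestins TXNIP, ARRDC1, ARRDC2, ARRDC3 and ARRDC4 and the 2 transcription factors MLX and MLXIP. All 7 members were among the 13559 genes listed in the first experiment and the 14024 listed in the second, and 13475 genes were in both. In the first experiment, untreated LN229 cells were kept in regular culture (complete medium with serum) or in ischemic culture. The latter combined hypoxia with a medium low in glucose, glutamine and serum, so the effects of these on a gene cannot be told apart. In the second experiment, cells in each of these cultures received DMSO as the vehicle, VX745, an inhibitor of the kinase p38, or MK25, an inhibitor of MK2, a kinase that p38 activates. Each of the 8 groups holds 2 libraries of bulk RNA from the same cell line, 16 in all. Nothing in the labels says that the 2 libraries of a group came from separate cultures, so the p-values below measure the spread between these libraries, which may be technical.

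Alpha-arrestins are adaptor proteins with an arrestin fold and, at their tails, short motifs that bind HECT-type ubiquitin ligases of the NEDD4 family, and through these ligases they mark membrane proteins for endocytosis and degradation. TXNIP, thioredoxin-interacting protein, also binds thioredoxin and limits glucose uptake by driving glucose transporters off the cell surface. MLXIP, also called MondoA, pairs with MLX; when glucose 6-phosphate builds up, the pair enters the nucleus, binds carbohydrate response elements made of a pair of E-boxes, and switches on TXNIP and ARRDC4, so that the level of TXNIP RNA is a common readout of glucose supply.

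Between 22346073 and 28373993 reads per library lay on the listed genes in the first experiment, and between 20122017 and 37562668 in the second. Every replicate pair differed by more than sampling noise, with a chi-square of 3.29 to 9.4 per gene. The 5 genes taken as a check of the culture (CA9, VEGFA, ADM, PDK1 and BNIP3, all raised by hypoxia in many cells) rose in both experiments, with a median log2 fold change of 4.85 in untreated cells and 4.27 with DMSO. Of the 8 glioma and glial markers, VIM (log2 normalized CPM 11.1 to 12.8), NES and CD44 were abundant, while GFAP, the defining astrocyte marker, was held by 21 to 55 reads per library. In ischemic against regular culture, 2 of these 8 markers rose and 5 fell in untreated cells, and 3 rose and 4 fell with DMSO, with SOX2 at -2.23 and VIM at 1.27 on the log2 scale with DMSO. Among all genes 70.4% passed in untreated cells and 69.6% with DMSO. Of 6 markers of other cell types, PTPRC, PECAM1, EPCAM and RBFOX3 were not among the listed genes, CD68 had log2 values of 4.47 to 6.01 and COL1A1 of 2.41 to 3.42. CD68 rose in both experiments, while COL1A1 changed by -0.01 in untreated cells (adjusted p = 0.962) and by -0.28 with DMSO (adjusted p = 0.0477). Whether these marker changes bear on the 7 genes was not tested.

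TXNIP fell and ARRDC3 rose, each by several doublings, in every comparison of ischemic with regular culture. TXNIP lies on chromosome 1 (GRCh38.p14, 145992435 to 145996579, minus strand) and ARRDC4, its closest companion in glucose sensing, on chromosome 15 (97960703 to 97973833, plus strand). ARRDC3, an adaptor that lowers the surface level of an integrin, lies on chromosome 5 (91368631 to 91383317, minus strand). The 250 bases before the start site of these 3 genes are shown because the first 2 are textbook targets of the MLXIP and MLX pair and the third moved the other way. They come from RefSeq (GRCh38.p14), as chr1:145996580-145996829 on the minus strand, chr15:97960453-97960702 on the plus strand and chr5:91383318-91383567 on the minus strand. Capitals mark the paired E-box-like sites, the full E-box and the CCAAT box, read on either strand.
TXNIP: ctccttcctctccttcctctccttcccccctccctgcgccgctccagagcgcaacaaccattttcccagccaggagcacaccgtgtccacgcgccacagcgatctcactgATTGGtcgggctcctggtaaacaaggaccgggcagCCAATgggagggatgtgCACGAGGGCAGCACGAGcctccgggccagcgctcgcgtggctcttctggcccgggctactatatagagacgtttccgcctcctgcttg
ARRDC4: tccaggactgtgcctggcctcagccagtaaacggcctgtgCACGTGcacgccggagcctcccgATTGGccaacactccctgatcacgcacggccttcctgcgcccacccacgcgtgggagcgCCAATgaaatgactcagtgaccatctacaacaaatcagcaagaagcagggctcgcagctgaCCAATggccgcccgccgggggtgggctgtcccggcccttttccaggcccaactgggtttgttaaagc
ARRDC3: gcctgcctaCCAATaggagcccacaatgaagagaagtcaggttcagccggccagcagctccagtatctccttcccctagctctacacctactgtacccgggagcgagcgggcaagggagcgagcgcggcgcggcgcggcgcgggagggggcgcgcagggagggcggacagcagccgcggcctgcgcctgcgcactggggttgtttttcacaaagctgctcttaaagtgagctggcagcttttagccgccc

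The window of TXNIP held 1 match to paired E-box sites 5 bases apart (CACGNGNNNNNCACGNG, read on both strands), whose first base lies at -88 from the start. Promoters of 300 bases with this match are rare, 20 of the 35116 start sites in RefSeq or 0.057%. The TXNIP window also held 2 CCAAT boxes (CCAAT), which flank a forkhead core (GTAAACA). At least 1 CCAAT box was found in 34.6% of all promoters, 2 or more in 10.8%, and the forkhead core in 3.42%. The ARRDC4 window held no paired match with this spacing, but 1 full E-box (CACGTG, in 7.26% of promoters) and 3 CCAAT boxes. The ARRDC3 window held 1 CCAAT box and neither kind of E-box, and its second start site had a forkhead core. Of the other members, MLX had 1 E-box and 1 CCAAT box, ARRDC1 and MLXIP had 1 CCAAT box each at their start sites, and ARRDC2 had none at its first and 1 CCAAT box at its second. The core of the hypoxia element (ACGTG, in 21.4% of promoters) was found within the E-boxes of ARRDC4 and MLX, whose letters contain it, and once at the second start site of TXNIP. A match is a run of letters and does not show that a factor binds there.

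In untreated cells, TXNIP stood at log2 normalized CPM of 6.66 and 6.63 in the libraries of regular culture and at 2.34 and 1.80 in those of ischemic culture. In reads, these were 2500 and 2783 against 137 and 72. The groups were far apart, and the ischemic replicates differed from each other more than the regular ones. The log2 fold change was -4.58 ± 0.14 (SE; 95% confidence interval -4.89 to -4.27), a 23.9-fold lower level, with an adjusted p of 6.88e-11 from limma. This placed TXNIP 5 from the bottom of all 13559 genes ranked by fold change. All fold changes are on the deposited scale, log2 of the value plus an offset of 1.49 to 2.62 reads per library, which slightly understates the change of a gene with few reads. In bulk RNA, fewer cells that express a gene and less RNA of it per cell cannot be told apart.

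With DMSO, TXNIP fell from 6.24 and 6.28 in regular culture to 2.43 and 2.33 in ischemic culture, a log2 fold change of -3.88 ± 0.09 (adjusted p = 1.69e-16) and 14 from the bottom of 14024 genes. With VX745 it fell from 6.15 and 6.26 to 2.65 and 2.49 (-3.64 ± 0.09, adjusted p = 5.05e-16). With MK25 it fell from 6.36 and 6.45 to 2.42 and 2.26 (-4.07 ± 0.09, adjusted p = 2.03e-16). No ischemic library came near a regular one, whatever was added to the medium. Within ischemic culture the order was VX745, DMSO and MK25, and the libraries of DMSO and MK25 overlapped. Within regular culture MK25 stood above DMSO, which overlapped with VX745.

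ARRDC3 moved the other way. In untreated cells it stood at 4.58 and 4.68 in regular culture and at 8.73 and 8.91 in ischemic culture, that is at 587 and 716 reads against 11689 and 10184. The log2 fold change was 4.19 ± 0.08 (interval 4.02 to 4.36, 18.3-fold, adjusted p = 7.65e-13), 66 from the top of all genes. With DMSO it rose from 5.09 and 5.11 to 8.34 in both ischemic libraries, by 3.24 ± 0.09 (9.43-fold, adjusted p = 5.32e-15). The rise was 2.82 ± 0.09 with VX745 (adjusted p = 4.59e-14) and 3.07 ± 0.09 with MK25 (adjusted p = 2.35e-14). From the highest level down, the order in the second experiment was ischemic MK25, DMSO and VX745, then regular MK25, DMSO and VX745, and no neighbours in this order overlapped. The antisense gene ARRDC3-AS1 overlaps ARRDC3, and the libraries do not keep strand, so reads of the overlap cannot be assigned; ARRDC3-AS1 held 17 to 94 reads per library and itself rose, by 1.20 ± 0.29 in untreated cells and 1.47 ± 0.25 with DMSO.

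**Figure D1:**
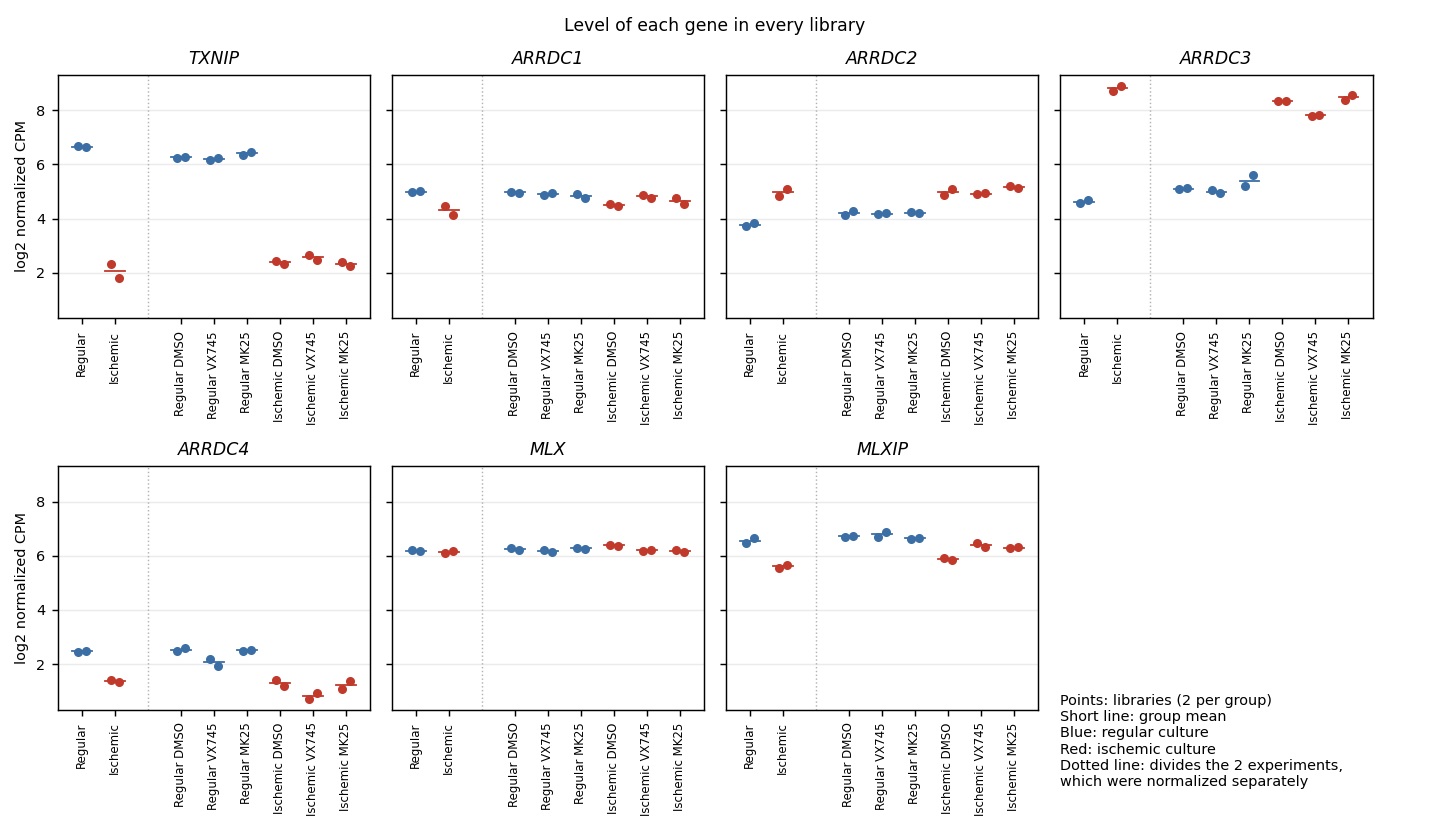
Level of each of the 7 genes as log2 normalized CPM (y axis) in every library of the 8 groups (x axis), with points for libraries, a short line for the mean of 2 libraries, blue for regular and red for ischemic culture, and a dotted line between the 2 experiments, which were normalized separately. TXNIP sits between 6.15 and 6.66 in all regular libraries and between 1.80 and 2.65 in all ischemic ones, ARRDC3 goes the opposite way, and MLX stays between 6.10 and 6.39 throughout.

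ARRDC4 fell as TXNIP did, from a lower level and by less. Its untreated values were 2.44 and 2.50 in regular culture and 1.43 and 1.34 in ischemic culture, from 132 and 156 reads against 72 and 52. The log2 fold change was -1.08 ± 0.17 in untreated cells (adjusted p = 0.000114) and -1.22 ± 0.17 with DMSO (adjusted p = 7.42e-06). It was -1.23 ± 0.17 with VX745 and -1.28 ± 0.17 with MK25. ARRDC4 was held by 52 to 172 reads in all 16 libraries, the fewest of the 7 genes, and its standard errors were the largest. Regular and ischemic libraries did not overlap in either experiment.

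ARRDC2 lies on chromosome 19 (18001124 to 18014102, plus strand) and rose. In untreated cells it went from 3.74 and 3.83 to 4.85 and 5.10, by 1.19 ± 0.11 (adjusted p = 7.98e-07). With DMSO it went from 4.15 and 4.29 to 4.88 and 5.10, by 0.77 ± 0.08 (adjusted p = 2.81e-07). The rise was 0.75 ± 0.08 with VX745 and 0.95 ± 0.08 with MK25, and no ischemic library of the second experiment reached down to a regular one.

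ARRDC1, which drives the budding of vesicles at the plasma membrane together with TSG101, lies on chromosome 9 (137605686 to 137615360, plus strand). It stood at 4.97 and 5.01 in untreated regular culture and at 4.48 and 4.13 in ischemic culture, a fall of 0.69 on the log2 scale (SE 0.11, adjusted p = 0.000157). With DMSO it went from 4.99 and 4.96 to 4.53 and 4.46 (-0.48 ± 0.08, adjusted p = 7.88e-05). With VX745 the change was -0.08 (interval -0.26 to 0.10, adjusted p = 0.406) and with MK25 -0.17 (interval -0.35 to 0.01, adjusted p = 0.0857), and neither passed. Without replicate 1 of ischemic MK25 the change with MK25 was -0.27 (adjusted p = 0.0229) and without replicate 2 of regular MK25 it was -0.25 (adjusted p = 0.043). The antisense gene ARRDC1-AS1, which overlaps the end of ARRDC1, fell in the same comparisons, by 1.22 in untreated cells and by 0.85 with DMSO on the log2 scale.

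MLX, the partner that all Mondo factors need in order to bind DNA, lies on chromosome 17 (42567100 to 42573203, plus strand) and did not pass the test between cultures in any of the 4 comparisons. Its log2 values in untreated cells were 6.23 and 6.16 in regular and 6.10 and 6.19 in ischemic culture, so the groups overlapped (-0.05, interval -0.21 to 0.11, adjusted p = 0.544). With DMSO it had 6.30 and 6.19 against 6.39 and 6.37 (0.13, interval 0.01 to 0.26, adjusted p = 0.0587), which passed without replicate 1 of regular DMSO (0.18, adjusted p = 0.0247). With VX745 the change was 0.01 (interval -0.12 to 0.13) and with MK25 -0.10 (interval -0.23 to 0.02). Of the words of 31 bases in MLX, 21.7% also occur in transcripts of other genes, the highest share of the 7. Words were matched on both strands, so the stretch where MLX overlaps PSMC3IP can count toward this share, and how much was not tested. The level of MLX is thus less certain than that of TXNIP and ARRDC4, for which the share is 0.

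MLXIP, the sensor of the pair, lies on chromosome 12 (122078756 to 122147344, plus strand) and fell in each of the 4 comparisons. In untreated cells it went from 6.47 and 6.65 to 5.55 and 5.67, a change of -0.95 ± 0.08 (1.93-fold, adjusted p = 6.26e-07). With DMSO it went from 6.69 and 6.73 to 5.93 and 5.83 (-0.83 ± 0.07, adjusted p = 1.07e-08). The fall was smaller with an inhibitor present: from 6.69 and 6.89 to 6.45 and 6.31 with VX745 (-0.41 ± 0.07, adjusted p = 6.05e-05), and from 6.61 and 6.67 to 6.29 and 6.31 with MK25 (-0.34 ± 0.07, adjusted p = 0.000408). In the order of levels, regular VX745 overlapped with regular DMSO and ischemic VX745 with ischemic MK25, while ischemic DMSO stood lowest and apart. The test of that difference between the falls is given with the inhibitors.

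In counts, 6 of the 7 members passed the test in untreated cells (2 higher and 4 lower in ischemic culture), in a comparison where 70.4% of all genes passed, and 4 also changed by at least 2-fold, against 20.4% of all genes. With DMSO 6 passed (69.6% of all genes) and 3 changed by at least 2-fold (17.1%). With VX745 5 passed (66.6%) and 3 changed by at least 2-fold (14.5%), and with MK25 5 passed (67.2%) and 3 changed by at least 2-fold (13.9%). Most genes passed in these comparisons, so the count says little about the members, and what set TXNIP and ARRDC3 apart was the size of their changes. The median log2 fold change of the 7 was -0.69 in untreated cells and -0.48 with DMSO, against -0.01 over all genes in both. The 2 experiments were normalized separately, and differences in fold change between them were not tested.

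**Figure D2:**
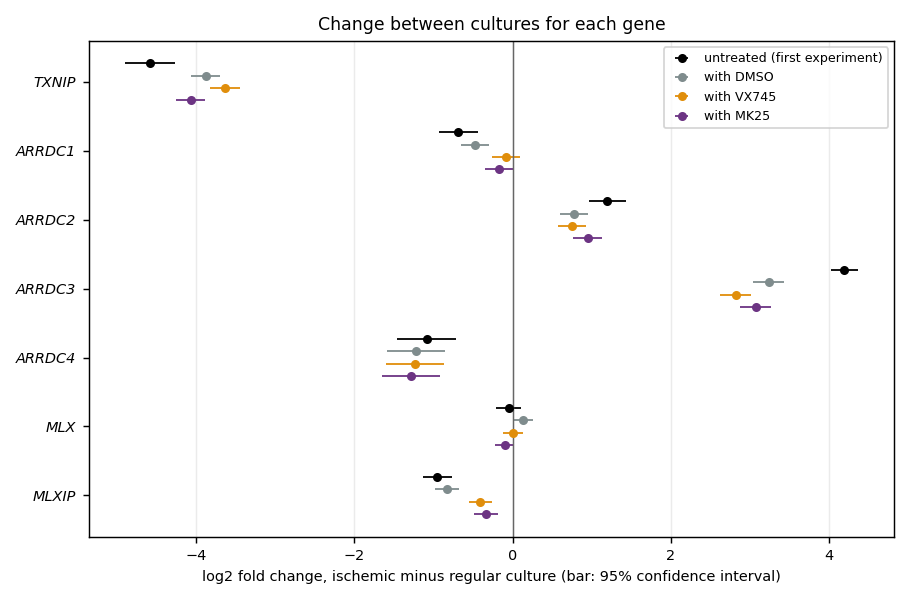
Log2 fold change of ischemic against regular culture (x axis) for each of the 7 genes (y axis), with points for the estimates in untreated cells and with DMSO, VX745 or MK25, and bars for their 95% confidence intervals. TXNIP (-4.58 to -3.64) and ARRDC3 (2.82 to 4.19) lie far from 0 on opposite sides in all 4 comparisons, and the intervals of MLX lie around or next to 0.

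Levels of different genes were compared per length, as reads per kilobase of exon, scaled to library size (RPKM). Library size here is the sum of recovered reads, without the normalization of the deposited log2 values. Differences between groups can therefore depart from the tested changes. With DMSO, MLX had an RPKM of 17.6 in ischemic and 18.8 in regular culture, while its deposited log2 values averaged 6.38 and 6.25. Shares within a library do not depend on this scaling. In regular culture TXNIP led the alpha-arrestins, with 30.1 ± 0.4 (SD, n = 2) in untreated cells and 22.4 ± 0.6 with DMSO, and ARRDC1 followed with 9.06 ± 0.16 and 8.68 ± 0.03. In ischemic culture ARRDC3 led, with 87.0 ± 6.2 in untreated cells and 58.4 ± 0.4 with DMSO, and TXNIP had 1.12 ± 0.32 and 1.28 ± 0.07. ARRDC4 was the lowest of the 7 in all 8 groups, at 0.411 to 1.47. MLX, at 15.9 to 19.0, stood above MLXIP, at 3.38 to 8.43, in each group.

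Set against the summed level of the 5 alpha-arrestins, TXNIP made up 62.0% and 60.5% in the regular libraries of untreated cells and 1.39% and 0.858% in the ischemic ones. ARRDC3 made up 10.5% and 11.2% against 85.8% and 87.7%. With DMSO the mean share of TXNIP went from 50.9% to 1.78% and that of ARRDC3 from 16.5% to 81.4%. In ischemic culture ARRDC3 had a share of 73.9% with VX745 and 81.3% with MK25, while ARRDC1 had 12.2% and 7.61% against 7.44% with DMSO. ARRDC2 kept a similar share in both cultures, 6.48% and 6.49% in untreated cells and 9.54% and 8.59% with DMSO. On this scale of reads alone the summed level was higher in ischemic culture, 100 ± 5 against 49.1 ± 0.2 in untreated cells and 71.7 ± 0.1 against 44 ± 1.2 with DMSO. The sums were not tested. The family's RNA was thus of a different make-up in each culture, mostly TXNIP in one and mostly ARRDC3 in the other.

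**Figure D3:**
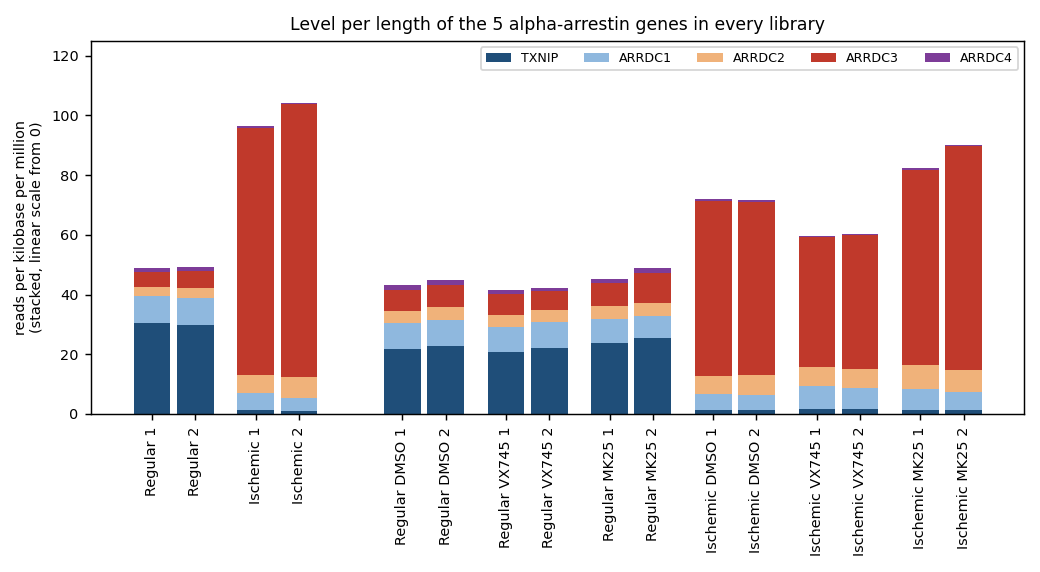
Level per length of the 5 alpha-arrestin genes (y axis, RPKM, stacked on a linear scale from 0) in each of the 16 libraries (x axis), with a gap between the 2 experiments. TXNIP is the largest part of every regular library, ARRDC3 the largest part of every ischemic one, and the bars of ischemic VX745 (59.6 and 60.4 in all) are lower than those of ischemic DMSO (71.6 and 71.8) and MK25 (82.3 and 90.2). Bars are scaled to the sum of reads alone, without the normalization of the tested values, and their differences between groups were not tested. On the deposited values, ARRDC3 did not pass for MK25 against DMSO in ischemic culture (0.13, adjusted p = 0.273 by limma).

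No member changed by 1.5-fold or more with either inhibitor against DMSO. The changes of TXNIP, ARRDC2, ARRDC3 and ARRDC4 with an inhibitor were smaller than their changes with culture, while MLX passed with both inhibitors in ischemic culture and in no comparison of cultures. VX745 and MK25 are compared with the same DMSO libraries, so their effects are not independent of each other. In ischemic culture VX745 changed 5 of the 7 members (28.9% of all genes passed), 2 higher and 3 lower. ARRDC3 fell, from 8.34 in both DMSO libraries to 7.80 and 7.84 (-0.52 ± 0.09, adjusted p = 0.00061). MLXIP rose from 5.93 and 5.83 to 6.45 and 6.31 (0.50 ± 0.07, adjusted p = 7.18e-05). In both genes the VX745 libraries lay apart from the DMSO libraries.

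ARRDC1 rose with VX745 in ischemic culture, from 4.53 and 4.46 to 4.88 and 4.77 (0.33 ± 0.08, adjusted p = 0.00793), and the call was lost without replicate 1 of ischemic VX745 (0.27, adjusted p = 0.096) or without replicate 2 of ischemic DMSO (0.29, adjusted p = 0.063). The overlapping ARRDC1-AS1 rose in the same comparison (0.39 ± 0.08, adjusted p = 0.00176). Reads of the overlap cannot be assigned to either gene. It runs only from 137615332 to 137615360, a short stretch beside the 3790 exon bases of ARRDC1. ARRDC4 had -0.48 ± 0.17 (adjusted p = 0.0494, from 64 and 65 reads to 52 and 57), and MLX had -0.18 ± 0.06 (adjusted p = 0.0285). These last 2 calls stand close to the threshold and were lost when any 1 of the 4 ischemic VX745 and DMSO libraries was left out, with adjusted p of 0.0589 to 0.265 for ARRDC4 and 0.0794 to 0.186 for MLX. Beside VX745, TXNIP had 0.18 (interval -0.0011 to 0.37, adjusted p = 0.127) and ARRDC2 -0.06 (interval -0.24 to 0.11, adjusted p = 0.613), and neither passed.

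MK25 in ischemic culture changed 2 of the 7 members, where 41.7% of all genes passed. MLXIP rose to 6.29 and 6.31 (0.42 ± 0.07, adjusted p = 0.000141), and MLX fell from 6.39 and 6.37 to 6.21 and 6.14 (-0.21 ± 0.06, adjusted p = 0.0101). For MLX the adjusted p was 0.0797 without replicate 2 of ischemic MK25 (-0.17) and 0.0679 without replicate 1 of ischemic DMSO (-0.19), and with quantile normalization MLX had -0.14 (adjusted p = 0.0699). PSMC3IP, which overlaps MLX, fell by more in ischemic culture, with MK25 (-0.47 ± 0.08, adjusted p = 0.000177) and with VX745 (-0.30 ± 0.08, adjusted p = 0.00846), and its part in the values of MLX was not tested. None of the 5 alpha-arrestins passed. TXNIP had -0.05 (interval -0.23 to 0.14), ARRDC3 0.13 (interval -0.06 to 0.33) and ARRDC2 0.18 (interval -0.001 to 0.35, adjusted p = 0.103). ARRDC2 passed without replicate 2 of ischemic DMSO (0.285, adjusted p = 0.035), and ARRDC3 passed with quantile normalization (0.30, adjusted p = 0.0228).

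Set directly against VX745 in ischemic culture, MK25 left ARRDC3 higher by 0.65 ± 0.09 (1.57-fold, 8.38 and 8.57 against 7.80 and 7.84, adjusted p = 7.81e-05). It was the single member of 7 that passed, where 18.4% of all genes did. TXNIP had -0.23 (interval -0.42 to -0.05, adjusted p = 0.0782) and ARRDC2 0.24 (interval 0.06 to 0.42, adjusted p = 0.0572), which passed with median centring, quantile normalization, voom or only the groups compared (adjusted p of 0.019 to 0.0497). MLXIP, which rose with both compounds, differed between them by -0.08 (interval -0.22 to 0.07, adjusted p = 0.514).

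In regular culture VX745 changed 0 of the 7 members by limma (0.335% of all genes passed), 1 at an unadjusted p under 0.05, which was ARRDC4 (2.47 and 2.58 against 2.18 and 1.94, -0.46 ± 0.17, adjusted p = 0.226), and 0 by voom on the recovered reads. MK25 changed 1 of 7 (12.2% of all genes), ARRDC3, from 5.09 and 5.11 to 5.20 and 5.60 (0.30 ± 0.09, adjusted p = 0.0466). That call rests on replicate 2 of regular MK25, without which the change was 0.10 (adjusted p = 0.464). It was also lost without replicate 1 (0.29, adjusted p = 0.123) or replicate 2 (0.31, adjusted p = 0.151) of regular DMSO. All 5 genes of the culture check rose with MK25 in regular culture, by a median of 1.86 on the log2 scale, and in these libraries TXNIP had 0.14 (interval -0.04 to 0.33, adjusted p = 0.314).

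**Figure D4:**
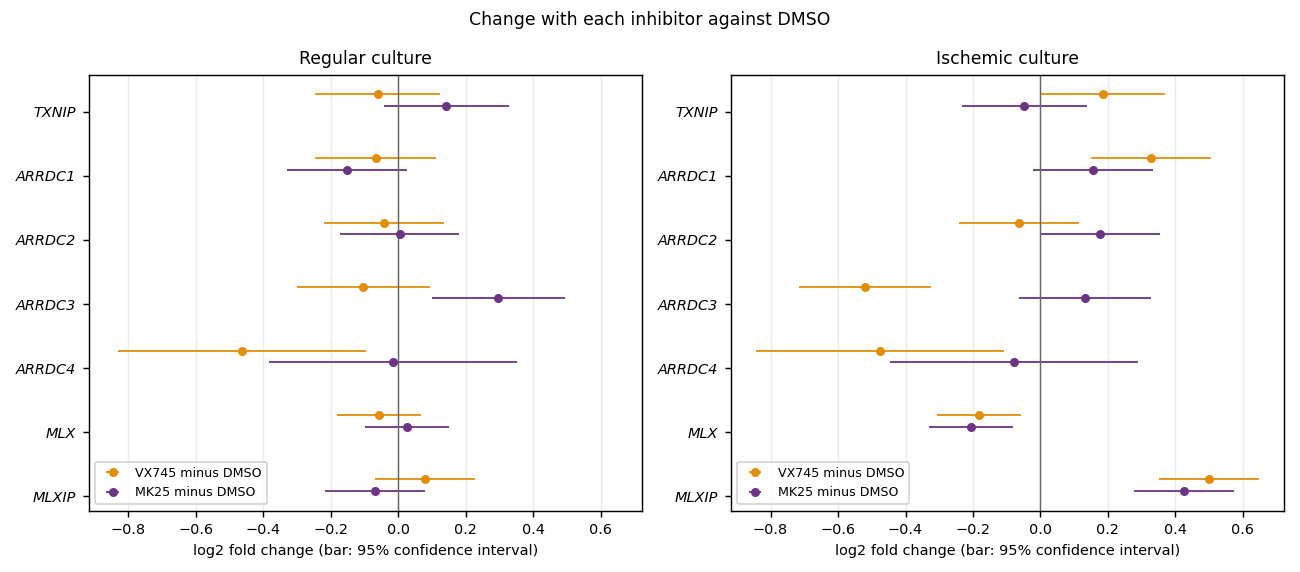
Log2 fold change against DMSO (x axis) for each of the 7 genes (y axis) with VX745 and MK25, in regular culture on the left and ischemic culture on the right, with bars for the 95% confidence intervals. In ischemic culture MLXIP is higher with both compounds (0.50 and 0.42) and ARRDC3 lower with VX745 (-0.52), and in regular culture the intervals of all genes but ARRDC3 with MK25 and ARRDC4 with VX745 include 0.

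Whether an inhibitor acted differently in the 2 cultures was tested by the interaction. With VX745, 3 of the 7 members passed (11.8% of all genes): MLXIP (0.42 ± 0.10, adjusted p = 0.0121), ARRDC1 (0.40 ± 0.12, adjusted p = 0.0405) and ARRDC3 (-0.42 ± 0.13, adjusted p = 0.0493). Leaving out any 1 of the 8 libraries ended the call for ARRDC1 (adjusted p 0.0548 to 0.171) and for ARRDC3 (0.0551 to 0.169), and a fit with no variance trend ended all 3. MLXIP lost its call without replicate 1 of ischemic VX745 (0.35, adjusted p = 0.0819), replicate 2 of ischemic DMSO (0.37, adjusted p = 0.0515) or replicate 1 of regular VX745 (0.32, adjusted p = 0.0664). With MK25, 1 of 7 passed (24.4% of all genes), MLXIP (0.49 ± 0.10, adjusted p = 0.00173), which kept an adjusted p of 0.0011 to 0.0247 in all alternatives. With a library left out, ARRDC1 passed as well without replicate 2 of ischemic MK25 (0.41, adjusted p = 0.0296) or replicate 1 of regular MK25 (0.38, adjusted p = 0.0498), ARRDC3 without the latter (-0.36, adjusted p = 0.0198) and MLX without replicate 1 of regular DMSO (-0.29, adjusted p = 0.0245). So for MLXIP the difference between the cultures was smaller with MK25 than with DMSO under every setting tried, and TXNIP, the gene it is best known to drive, had interactions of 0.24 with VX745 (interval -0.02 to 0.51) and -0.19 with MK25 (interval -0.45 to 0.07) that did not pass. With quantile normalization the interaction of TXNIP with MK25 was -0.38 and passed (adjusted p = 0.0415).

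The other genes of the pathway were counted by lists. Each count between cultures stands against 69.6% of all genes that passed with DMSO and 70.4% in untreated cells. The remaining arrestins on the list comprised ARRB1 and ARRB2, the beta-arrestins that silence G-protein-coupled receptors, while ARRDC5, SAG and ARR3 were not among the listed genes and were not analysed here. ARRB1 fell (-1.02 ± 0.13 with DMSO, -0.76 ± 0.19 in untreated cells) and ARRB2 rose (0.51 ± 0.07 and 0.19 ± 0.08). In ischemic culture ARRB1 rose by 0.91 ± 0.13 with VX745 and by 1.01 ± 0.13 with MK25.

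Of 10 other factors of the MAX and MLX network 9 were measured, and MLXIPL, the paralog of MLXIP best known from liver, was not among the listed genes. With DMSO 4 rose, 1 fell and 4 did not pass, and the median log2 fold change was 0.06. The largest rise was that of MXI1 (3.19 ± 0.06), a repressor that competes with MYC for MAX, and the fall was that of MYCN (-1.02 ± 0.20). In untreated cells 4 rose and 2 fell, with a median of 0.18. Among all genes 69.6% passed with DMSO and 70.4% in untreated cells.

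Of 12 genes known to be driven through carbohydrate response elements, 7 were measured with DMSO, of which 2 rose and 3 fell (median -0.14), and 6 in untreated cells, of which 2 rose and 3 fell (median -0.15). KLF10 rose by 1.21 ± 0.06 with DMSO and by 2.11 ± 0.10 in untreated cells. FASN, the fatty acid synthase, fell (-0.86 ± 0.09 and -1.24 ± 0.08). Between the cultures 69.6% of all genes passed with DMSO and 70.4% in untreated cells. The genes of this list did not move as one with TXNIP and ARRDC4. In ischemic culture 5 of the 7 measured genes of the list rose and none fell with MK25, where 41.7% of all genes passed. With VX745 3 fell and none rose, where 28.9% of all genes passed. With MK25 KLF10 rose by 0.53 ± 0.06 and FASN by 0.93 ± 0.09. The largest rise was that of SCD, a fatty acid desaturase named after its values were seen, by 1.79 ± 0.08.

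Of 15 genes that set the supply and use of glucose 6-phosphate, the signal that MLXIP senses, 12 were measured with DMSO, of which 8 rose and 2 fell, with a median of 1.40 against -0.01 over all genes. In untreated cells 8 of 11 rose and 3 fell, with a median of 2.03. Most genes passed here as well, 69.6% with DMSO and 70.4% in untreated cells. With DMSO SLC2A3, a glucose transporter, rose by 5.29 ± 0.07, HK2, a hexokinase, by 4.12 ± 0.07, and SLC2A1, the transporter that TXNIP removes from the surface, by 2.04 ± 0.05, while SLC2A8 fell (-0.40 ± 0.13). HK2 also rose with MK25 in regular culture, by 1.33 ± 0.07, where TXNIP did not pass the test.

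Among 6 genes of the thioredoxin system and other partners of TXNIP, 2 rose, 1 fell and 3 did not pass with DMSO (median 0.27). The same counts held in untreated cells (median 0.03). DDIT4, a brake on mTORC1 with which TXNIP has been reported to form a complex, rose by 4.56 ± 0.05 with DMSO. TXN, the thioredoxin that TXNIP inhibits, fell (-0.37 ± 0.07 with DMSO and -0.80 ± 0.08 in untreated cells). Of 9 NEDD4-family ligases, to which alpha-arrestins recruit their cargo, 6 rose and 1 fell with DMSO (median 0.52). In untreated cells 7 of 8 rose and none fell (median 0.45). For both of these lists, 69.6% of all genes passed with DMSO and 70.4% in untreated cells, so the counts say little. WWP2 rose by 0.83 ± 0.06 and WWP1 fell (-0.38 ± 0.08) with DMSO.

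Of 7 genes for cargo and vesicle partners of the ARRDC proteins, 4 rose and 2 fell with DMSO (median 0.49), and 5 rose and 1 fell in untreated cells (median 0.55). HGS, an endosomal sorting protein, rose by 0.89 ± 0.06 with DMSO. Of 7 genes for AMPK, the kinase that marks TXNIP for degradation, 6 were measured, of which 4 rose and 2 fell with DMSO (median 0.60) and 4 rose in untreated cells (median 0.29). For both lists the share of all genes that passed was 69.6% with DMSO and 70.4% in untreated cells. The catalytic subunit PRKAA2 rose by 2.09 ± 0.10 and PRKAG2 fell (-0.40 ± 0.09) with DMSO.

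The genes whose pattern lay nearest to that of a member were sought over the 12 libraries of the second experiment, by the root mean square difference of log2 values after each gene was centred on its own mean, among 10052 or 10053 genes whose log2 values averaged 3 or more. For ARRDC3 they were MXI1 (0.19), UCN2 (0.20) and PPP1R3B (0.23), and these rose with DMSO by 3.19, 2.96 and 2.98. For ARRDC2 they were KIAA2013, PIP4P2 and MFSD12 (0.05 to 0.07), and for ARRDC4 PLK2, RBMXL1 and SLC5A3 (0.16 to 0.18). TXNIP had no near neighbour: ADAMTS15 (0.62), LINC00641 (0.80) and HSPA8 (0.80) came closest, and their changes with DMSO were -3.15, -2.68 and -2.02, smaller than that of TXNIP itself. The measure is not scaled for the size of a change, and TXNIP was 14 from the bottom of 14024 genes with DMSO. Few genes could therefore lie near it, and the distance says little about the shape of its pattern. The measure is a description, since all genes were read in the same libraries.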

How the data were processed

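RNA from 16 bulk libraries of LN229 cells (8 groups of 2, in 2 experiments) was prepared with a kit that does not keep strand. According to the submitters' processing notes and the methods of the study, the authors worked in Galaxy, where trimmed reads were aligned with HISAT2 to GRCh38 and counts were normalized with edgeR, and they deposited log2 values of normalized CPM with a small offset. The counting program is not given in the sources used here. The deposited log2 values were used with no further transformation, one table per experiment. Undoing the logarithm gave whole reads (within 0.02) for 100% of the values, and these reads were used for depth, levels per length and 1 alternative. A gene at 3 reads or fewer in a library would count as at the floor, which covers counting error only, and no member was.

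Entrez identifiers were matched to symbols for 99.4% of the genes of the first experiment and 99.3% of the second. Fold changes, SEs, intervals and two-sided p-values came from limma 3.58.1 in R 4.3.3, with 1 mean per group, a variance trend and Benjamini-Hochberg adjustment over all genes. The 4 libraries of the first experiment and the 12 of the second were fitted apart, and a gene passed at an adjusted p under 0.05, of any size. Counts at a fold change of at least 2 (culture) or 1.5 (inhibitor) were made as well. There were 11 comparisons. The fit was tested on simulated data. The test named in the study's methods takes raw counts, and limma took its place since the values are on a log scale. Groups of 2 are too small for an exact permutation test to reach 0.05.

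Lengths came from the union of GENCODE exons, and promoters from RefSeq (GRCh38.p14, 250 bases before to 50 after the start). The motifs were searched on both strands. Python 3.11.15 was used for counts and figures. The members and lists were chosen with earlier results of these data known. Named are the 7 members in each comparison; per list the gene with the largest rise and the gene with the largest fall past the test with DMSO, plus MLXIPL, ARRDC5, TXN, SLC2A1, HK2 and KLF10; and for 4 alpha-arrestins the 3 genes of nearest pattern. The genes of the culture check and the markers were named as whole lists. Proteins were not used here. Alternatives were no variance trend, the replicate number as a block, median centring, quantile normalization, a mean of at least 1 CPM, fits of the groups compared alone, voom on the recovered reads, an unadjusted p, the fold thresholds, the longest transcript for lengths, group means for patterns, and each library left out. A crossed replicate block was added after seeing the data.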

Additional observations from a re-analysis of the deposited data

Results flagged for a closer look

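In 4 cases the change of a member with an inhibitor differed between the cultures by the test of the interaction (limma, 12 libraries), and for all 4 the value is the change in ischemic culture minus that in regular culture on the log2 scale. MLXIP had 0.42 with VX745 (adjusted p = 0.0121), its change being 0.50 in ischemic and 0.08 in regular culture. MLXIP had 0.49 with MK25 (adjusted p = 0.00173), from 0.42 in ischemic and -0.07 in regular culture. ARRDC1 had 0.40 with VX745 (adjusted p = 0.0405), from 0.33 and -0.07. ARRDC3 had -0.42 with VX745 (adjusted p = 0.0493), from -0.52 and -0.10. The last 2 lie close to the threshold of 0.05, and 11.8% of all genes passed this test with VX745 and 24.4% with MK25. Groups of 2 libraries are too small for a search for single libraries that stand apart.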

How the results depend on the processing

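Over 980 recomputed values of single members, 877 kept direction and side of the threshold. In the 4 comparisons of cultures every member that passed did so under all alternatives but the fold threshold. The counts that moved by more than 1.5-fold, or to or from 0, are listed next, with smaller moves added for VX745. With a fold change of at least 2 as well, 3 members passed with DMSO, 3 with VX745 and 3 with MK25; with at least 1.5, 0 passed for either inhibitor in ischemic culture and 0 for MK25 in regular culture. For VX745 in ischemic culture 2 to 3 passed with a library left out, and for MK25 1 to 3. With quantile normalization MK25 there had 2, with ARRDC3 in the place of MLX. Beside VX745 in ischemic culture, MLX lost its call with no variance trend (adjusted p = 0.0566 by limma) or quantile normalization (0.134). ARRDC4 lost its call there with voom (adjusted p = 0.0907) or only the groups compared (0.0902). For VX745 in regular culture 1 passed at an unadjusted p. For MK25 in regular culture 0 passed with no variance trend, quantile normalization, voom or only the groups compared, and 0 to 1 with a library left out. For the interaction of VX745, 0 passed with no variance trend, 1 with quantile normalization and 0 to 1 with a library left out. For that of MK25, 2 passed with quantile normalization (TXNIP gained, -0.38) or a mean of at least 1 CPM (MLX gained, -0.23), 3 at an unadjusted p and 1 to 3 with a library left out. For MK25 against VX745, 2 passed with median centring, quantile normalization, voom or only the groups compared, and 4 at an unadjusted p. In the interaction of VX745, ARRDC1 also lost its call with median centring (adjusted p = 0.0506 by limma) or voom (0.0514).

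Directions turned for small values that passed in neither fit. Between cultures with VX745, MLX (0.01) had -0.033 with median centring, -0.0032 with quantile normalization, -0.034 with voom, and -0.032 to 0.043 with a library left out. For MK25 in regular culture ARRDC2 had -0.0016 with median centring and -0.016 with quantile normalization, and for the interaction of MK25 ARRDC3 had 0.012 with quantile normalization. With a library left out, the ranges were -0.17 to 0.045 for ARRDC2 with VX745 in ischemic culture; -0.13 to 0.032 for TXNIP and -0.21 to 0.054 for ARRDC4 with MK25 there; -0.057 to 0.009 for MLX between the inhibitors; -0.11 to 0.027 for ARRDC2 and -0.020 to 0.18 for MLXIP with VX745 in regular culture; -0.066 to 0.073 for ARRDC2, -0.072 to 0.039 for ARRDC4 and -0.028 to 0.080 for MLX with MK25 there; -0.13 to 0.088 for ARRDC2 and -0.13 to 0.11 for ARRDC4 in the interaction of VX745; and -0.36 to 0.033 for ARRDC3 and -0.20 to 0.070 for ARRDC4 in that of MK25. Apart from those made by fewer libraries, the cause of these changes was not tested.

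The replicate numbers showed at most a weak pairing of the libraries (correlations of deviations of 0.19 in the first experiment and -0.10 to 0.18 in the second, 2 of 15 over 0.1). With the replicate block, 4 members passed for VX745 in ischemic culture, where ARRDC4 was lost (-0.48, adjusted p = 0.0583), and the counts of the other 10 comparisons were unchanged. With the numbers crossed, 2 members and 5846 genes passed for MK25 in ischemic culture, against 2 and 5850. Depth limits ARRDC4 the most, at 52 to 172 reads. With the longest transcript for lengths, MLX led TXNIP in regular culture with DMSO (30.8 against 27.7), VX745 (29.8 against 26.7) and MK25 (31.4 against 30.5), and TXNIP's share of the alpha-arrestins was 52.1%. Over group means 1 of the 3 genes nearest to ARRDC2 and 2 of those nearest to ARRDC4 stayed the same.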

Other observations

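In ischemic culture, where TXNIP did not pass the test with either inhibitor, some genes for glucose 6-phosphate did. Of the 12 measured genes for glucose 6-phosphate, VX745 raised 1 and lowered 6 (28.9% of all genes passed in either direction), with SLC2A1 at -0.37 ± 0.05 and HK2 at -0.51 ± 0.07 on the log2 scale. MK25 raised 3 and lowered 2, a share equal to that of all genes (41.7%), with SLC2A1 at -0.21 ± 0.05, while HK2 had -0.17 ± 0.07 (adjusted p = 0.0522). In regular culture MK25 raised 6 of the 12 and lowered none (12.2% of all genes passed), with SLC2A1 at 0.36 ± 0.05.

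TXN, the thioredoxin bound by TXNIP, fell in ischemic culture with VX745 (-0.24 ± 0.07, adjusted p = 0.0162) and with MK25 (-0.43 ± 0.07, adjusted p = 0.000135). In regular culture it had 0.06 with VX745 (adjusted p = 0.732) and 0.10 with MK25 (adjusted p = 0.371). The interaction passed for MK25 (-0.53 ± 0.10, adjusted p = 0.00106), and for VX745 it had an adjusted p of 0.0584.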
